A study of Mus musculus with 6 samples.

Results

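The subject is the transcript hierarchy of normal mouse retinal pigment epithelium (RPE): which genes hold the reads of the undiseased preparation, and how closely its libraries repeat each other. The members were chosen by label. They are the 3 libraries labelled Normal, out of 6 libraries in the series, with all 28043 genes of their tables. Each library was made from polyadenylated RNA of primary RPE cells of mice labelled normal, extracted with TRIzol. The sources used here do not give strain, age, sex, any time in culture or the number of mice behind a library. The libraries may therefore be separate animals or technical repeats, and the spread between them (standard deviation, SD, n = 3) is only the spread between these samples. Library 3 has a later accession number than libraries 1 and 2, and whether it was prepared apart from them is not stated. There is 1 group, so no test was made and every value below is a description.

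The RPE is a single layer of pigmented epithelium between the photoreceptors and the choroidal blood supply. It converts all-trans retinol back to 11-cis retinal in the visual cycle, engulfs the tips of shed outer segments and digests them in lysosomes. It also moves glucose, lactate, ions and water between the retina and the choroid, and secretes proteins in both directions. OTX2 and MITF are transcription factors known for specifying and maintaining the RPE.

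The values are read counts divided by 1 size factor per library, called normalised counts below. The libraries held 15929388, 17075519 and 19173187 reads in genes, and 3 reads, the most that a count of 0 allows, correspond to 3.09, 2.78 and 2.72 normalised counts. These floors reflect counting error alone, because the reads carried no molecular identifiers and several can stem from 1 molecule. Of the 28043 genes, 19731 had a read in every library, 1724 had none in any, 10144 reached a mean of 100 and 8 a mean of 100000. No library was a copy of another, since pairs differed by a chi-square of 17.8 to 30.2 per gene. Between 94.4% and 94.6% of genes with a mean of at least 100 lay within 1.5-fold in each pair. Library 2 stood apart in immediate early and heat shock genes, which were low in it. Some surface epithelium and ciliary or iris genes were high in it. Sterol synthesis genes were high in library 1 and low in library 2. Those groups are given with their values per library below.

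The labelled cell type was described by 12 RPE markers. They were chosen with earlier results of these data known, so their levels are not an independent check of the label. Of these markers, 11 had a mean of at least 100, and together the 12 held 9.56% of all normalised counts. The exception was Best1, the chloride channel bestrophin 1 that is widely used as an RPE marker, at 10.3, 12.04 and 13.6 in libraries 1, 2 and 3. Its level was above the floor in every library, at rank 14684. The 5 defining markers, Ptgds, Trf, Rgr, Rlbp1 and Rpe65, were all among the 11 genes with the most reads. Ranks and comparisons between genes refer to reads unless given per kb.

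The ranking by normalised count began with Ptgds, prostaglandin D2 synthase, a secreted carrier of lipophilic molecules (chromosome 2, 25466709 to 25470046, minus strand, GRCm38). It measured 339399, 337521 and 354623 in libraries 1, 2 and 3, a mean of 343848 ± 9379 (SD, n = 3) and 2.08% of the total. Trf, transferrin, the iron carrier (chromosome 9, 103204001 to 103230444, minus strand), measured 318169, 332872 and 360314, a mean of 337118 ± 21391. Rgr, an opsin of the RPE (chromosome 14, 37034909 to 37048964, minus strand), measured 293504, 300456 and 302029, a mean of 298663 ± 4536. Ttr, transthyretin, which carries thyroxine and retinol-binding protein, measured 265470, 247884 and 275614, a mean of 262990 ± 14031. The ranges of Ptgds and Trf overlapped, so their order is not set by these libraries, whereas Rgr and Ttr kept the third and the fourth rank in each.

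After these 4 genes the count dropped to 127450 ± 15592 for Clu, clusterin, a secreted chaperone. Cst3, the protease inhibitor cystatin C, had a mean of 124851, Psap, the precursor of the lysosomal saposins, 111827, and Apoe, apolipoprotein E, 110033. Rlbp1, which encodes the retinaldehyde-binding protein CRALBP, averaged 89266 ± 6419. Timp3, a metalloproteinase inhibitor of Bruch's membrane, averaged 88719 ± 10870 and Rpe65, the retinoid isomerase, 86793 ± 3425. Those 3 could not be ordered beyond their spread. The next were Enpp2 (autotaxin, 83980), Itgb8 (an integrin subunit, 69503), Bsg (basigin, the partner of lactate transporters, 65731) and Arl6ip1 (65631). The list of 20 closed with Abhd2 (65462), the nuclear noncoding RNA Malat1 (64158), Rdh10 and Rdh5 (retinol dehydrogenases, 63177 and 56432) and Hspa1b (an inducible HSP70 chaperone, 56070). Of the 20, 15 were within the 20 highest of every library, and 8 of the 19 neighbouring pairs kept their order in all 3. Library 3 was the highest of the 3 for 20 of the 20 genes as deposited and for 19 with the TMM scaling of edgeR. On CPM it was the highest for 11 of 20, so that order depends on the scaling.

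**Figure D1:**
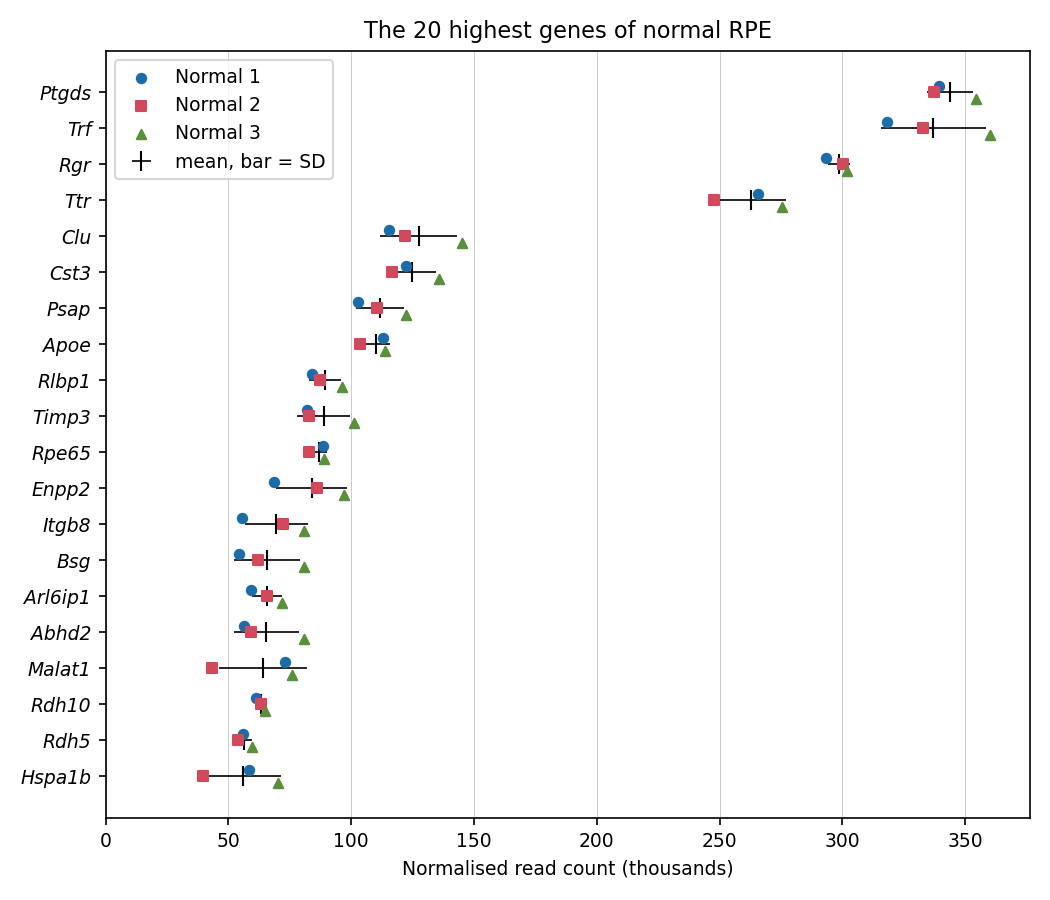
Normalised read count, as the number of 1000s (horizontal axis), of the 20 genes with the highest mean; points are the 3 Normal libraries, and the vertical tick and bar are mean and SD. The lowest point of Ttr, 247884 in library 2, is above the highest of Clu, 145019 in library 3, so the first 4 genes stand clear of the other 16.

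The 4 highest genes held 7.51% of all normalised counts, the 10 highest 11.5% (11.2%, 11.7% and 11.6% in libraries 1, 2 and 3) and the 20 highest 15.6%. The 100 highest held 28.6%, the 500 highest 47.4% and the 1000 highest 58.2%. Of the total, 25% lay in 67 genes, 50% in 599, 75% in 2465 and 90% in 5233. The number of genes that held 50% was 606, 641 and 540 by library, so library 3 needed the fewest, although library 2 had the largest share in the 10 highest. Protein-coding genes held 97.7% of the total, and the 90 cytosolic ribosomal protein genes, which make up the protein part of the ribosome, 0.854%. Ribosomal protein genes have many processed pseudogene copies, so this last share is uncertain.

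**Figure D2:**
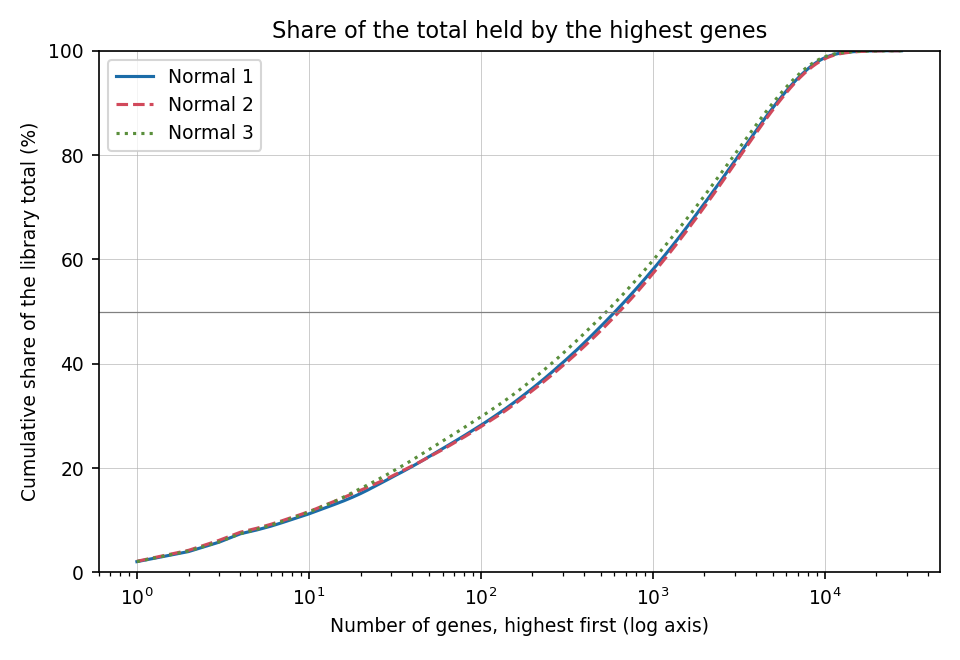
Cumulative share of the library total (vertical axis, percent) against the number of genes counted from the highest down (horizontal log axis), 1 line per Normal library. The lines cross 50% at 606, 641 and 540 genes in libraries 1, 2 and 3.

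A ranking by count ranks reads, and a long transcript gives more of them. Divided by the exon length of each gene, Ttr came first, with 221745 ± 11830 normalised counts per kb, and Ptgds second, with 208519 ± 5688. Trf followed with 101542 per kb, Cst3 with 98618, Rgr with 62403, Apoe with 51465 and Rpe65 with 44877. The levels per kb of Psap (40753), Clu (37082) and Bsg (36235) completed the 10 highest. Ttr was above Ptgds per kb in all 3 libraries, but with the longest annotated transcript as the length Ptgds was above Ttr (259117 against 221745), so their order depends on the gene model. Of the 20 highest genes by count, 15 were also among the 20 highest per kb, as were 64 of the 100 highest. Timp3 moved from rank 10 to rank 30, Itgb8 from 13 to 64, Abhd2 from 16 to 65 and Malat1 from 17 to 40. In the other direction, Mt1 (metallothionein 1, a metal buffer) moved from rank 57 to 13 and Slc16a8 (a lactate transporter) from rank 27 to 15.

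The visual cycle and retinoid genes held 6.12% of all normalised counts in 14 measured genes. Of the 14, 10 were among the 100 highest of all 28043 genes. The promoters of Rgr and Rpe65 are shown because they carry the recognition core of OTX proteins. Each is given as the 250 bases before the RefSeq start site, 5′ to 3′ on the gene's strand, with the core TAATCC, in either orientation, in capitals (GRCm38.p6, chr14:37049015-37049264, minus strand, for Rgr and chr3:159598931-159599180, plus strand, for Rpe65).
Rgr: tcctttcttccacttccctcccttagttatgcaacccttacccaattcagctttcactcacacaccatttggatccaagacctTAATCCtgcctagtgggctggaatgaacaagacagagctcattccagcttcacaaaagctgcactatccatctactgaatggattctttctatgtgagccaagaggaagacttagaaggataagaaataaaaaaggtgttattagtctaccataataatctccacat
Rpe65: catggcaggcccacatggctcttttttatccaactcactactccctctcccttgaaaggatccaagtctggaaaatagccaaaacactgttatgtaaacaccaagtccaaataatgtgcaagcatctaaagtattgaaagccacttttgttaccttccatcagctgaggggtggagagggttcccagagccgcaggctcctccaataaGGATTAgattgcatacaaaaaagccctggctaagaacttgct
The core begins at position -167 of the Rgr window and -42 of the Rpe65 window, the latter as its reverse complement GGATTA. In windows of 300 bases it was found in 3 of the 18 promoters matched to the list, against 7.06% of all 32851 promoters. The promoters of the markers Ptgds and Rlbp1 did not carry it. The E-box of the MITF type, CACGTG, was found in 1 of the 18, against 7.15% of all promoters. A match of either motif is a description and not a bound site.

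Among retinoid enzymes, Rpe65 measured 88531, 82848 and 89000 in libraries 1, 2 and 3, and Lrat, which makes the retinyl esters that RPE65 uses, 43767, 45834 and 56029. Rdh5 and Rdh10 had 5.31% and 2.89% as coefficient of variation (CV, the SD as a percentage of the mean). Rdh5 shares 720 exon bases on the same strand with Bloc1s1, whose own mean was 50.6. Rlbp1 measured 83947, 87454 and 96396. The retinol receptor Stra6 had a mean of 38241 and the retinoid flippase Abca4 18167. The opsin-related Rrh had a mean of 7766, and the dehydrogenases Rdh11 and Dhrs3 2722 and 2199. Rbp4, which carries retinol in blood, had the fewest reads, at 35.0, 40.7 and 31.7. The median CV of the 13 members with a mean of at least 100 was 5.34%, against 9.34% over all 10144 such genes. A range of 2-fold or more between the highest and the lowest library was found in 0 of the 13, against 341 of 10144 genes, or 3.36%.

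Secreted proteins were the class with the largest share among the 3 classes counted. Their 573 genes, taken by name out of all 28043, held 14.03% of the total. Of the 500 highest genes 42 belonged to them, and of the 500 highest per kb 47. Of the 10 highest genes, 8 were secreted or lysosomal proteins of this class. Below these came Col8a2 (51874) and Col8a1 (38424), the chains of the basement membrane collagen VIII, each within a CV of 10.4%. Ctsd, the lysosomal protease that digests outer segment proteins, averaged 41730 ± 7280. Crim1, which binds growth factors, averaged 32169. Vegfa, the growth factor on which the choroidal capillaries depend, measured 21388, 14715 and 16431. Igfbp5 (17175) and Cpe (18503), an IGF-binding protein and a prohormone-processing enzyme, varied by CVs of 2.32% and 1.45%. Timp3 shares exon bases with Syn3, and Pltp (25926, a phospholipid transfer protein) with Ctsa, and whether counting used strand is not stated in the sources used here.

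Spread within the secreted class was uneven. Of 212 secreted genes with a mean of at least 100, 46 (21.7%) had a 2-fold range, against 3.36% of all genes. The counts by library that follow can overlap, because each library is set against the mean of the others. A gene high in library 2 alone can therefore also count as low in libraries 1 and 3. In library 3, 33 of the 212 (15.6%) were at or under 0.5 of the mean of the other libraries, against 1.15% of all genes. In library 2, 24 (11.3%) were at least 2-fold above the other libraries, against 0.759%, and in library 1, 18 (8.49%) were at or under 0.5, against 0.631%. They include Fbln1, a matrix protein of stroma, at 161, 2244 and 169, and Dkk3, a secreted WNT modulator, at 633, 3597 and 1082, which were high in library 2 alone. Dcn, decorin of collagen fibrils, at 1991, 1746 and 928, was low in library 3. The fibroblast and stroma marker list summed to 6839, 9151 and 4840, but Fbln1 and Dcn are members of it and enter these sums. Of its 9 members with a mean of at least 100, 1 (11.1%) was at least 2-fold above the others in library 2. In library 3, 2 of the 9 (22.2%) were at or under 0.5 of the others. Fbln1 is in both counts, and its level in library 3 (169) was near that in library 1 (161). The part of this list in these differences was not tested. By contrast the 45 secreted and matrix genes known for the RPE had a median CV of 11.02%, and 2 of 40 had a 2-fold range (5%, against 3.36%).

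The 705 membrane transporters and channels, out of all 28043 genes, held 5.33% of the total, with 45 among the 500 highest (41 per kb). The gene with the most reads was Trpm3, a cation channel and the host of a microRNA that is abundant in RPE, at 54903, 52062 and 45254. It is a long gene, and its rank fell from 25 by count to 249 per kb. Carriers of lactate and glucose were also among the 11 transporter genes within the 100 highest. Slc16a8, the lactate carrier MCT3 of the basal RPE membrane, measured 47661, 39604 and 49655, Slc16a1, which encodes MCT1, had a mean of 25722, and Slc2a1, the glucose transporter GLUT1, 30691 ± 4388. Per kb Slc16a8 ranked 15, Slc2a1 44 and Slc16a1 70. The bicarbonate carrier Slc4a5 had a mean of 35020, above Slc2a1 and Slc16a1 in reads, and Slc4a2 had 18191. The carbonic anhydrases Car12 and Car14 averaged 22314 and 20117.

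The sodium pump of the RPE sits on its apical face. Its beta subunits Atp1b1 and Atp1b2 averaged 16717 and 8305. Carriers of amino acids and related solutes included Slc6a13 (14344), Slc6a6 (the taurine carrier, 13929), Slc6a20a (12066) and Slc1a1 (15336). The chloride channel gene Clic6 averaged 28663 and the sodium, calcium and potassium exchanger Slc24a1 19966. Kcnj13, the potassium channel of the apical RPE membrane, averaged 4381 ± 703. It shares 623 exon bases with Gigyf2 on the opposite strand, whose mean was 1480, so its level is uncertain without strand. Cftr, a chloride channel of other epithelia, had no read in any library. Of 321 transporter genes with a mean of at least 100, 9 had a 2-fold range, or 2.80%, which is near the 3.36% of all genes.

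Transcription factors were taken by name pattern, which leaves some out. The class so formed held 4.08% of the total (4.72%, 3.26% and 4.22% in libraries 1, 2 and 3). None of its genes was among the 20 highest. Of its 992 genes, 22 were among the 500 highest, near the share that 500 make of all 28043 genes. Of the 22, 8 belong to the immediate early genes, which are switched on within minutes of a stimulus. Jun measured 68016, 19891 and 78583, Egr1 49343, 19222 and 53265, and Fos 45877, 11619 and 37350. In each of these, library 2 was the lowest. Fosb (38830, 4011 and 18992), Nr4a1 (14706, 2829 and 16023), Atf3 (11490, 2962 and 11739) and Junb (11194, 2684 and 6821) were lowest in library 2 as well. The means of these genes therefore lie far above library 2. Without the immediate early list, transcription factors held 3.19%, 2.84% and 2.90% of the total in libraries 1, 2 and 3. Of those 980 genes, 14 were among the 500 highest.

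Myrf, a transcription factor known for myelin genes, is missed by the name pattern and is in none of these counts. It measured 21276, 23177 and 23523, rank 64 and 0.137% of the total. Within the class, the highest genes outside the immediate early list were Epas1, which encodes the hypoxia-inducible factor HIF-2 alpha, and Otx2. Epas1 measured 18079, 20560 and 24858. Otx2 measured 17130, 15482 and 15857, a mean of 16156 ± 864 and rank 93. Its CV of 5.35% was far below the 56.4% of Jun and of Fos. An antisense gene, Otx2os1, overlaps it, and reads of both cannot be told apart without strand. Nfe2l1, a regulator of proteasome genes, averaged 9305, the clock output factor Tef 7670, and Srebf1, a regulator of lipid synthesis, 6900. Sox9 measured 8457, 4296 and 7454, low in library 2. Hes1, a target of Notch signalling, measured 9428, 1543 and 5950. Mxd4 (6202) and Zbtb20 (5659) varied by CVs of 3.02% and 1.64%.

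The remaining factors known for the RPE were much lower in reads. Six3 averaged 2919 ± 162, Mitf 2424 ± 176 and Lhx2 2388 ± 114, each with a CV under 8%. Of 28 such factors, 15 had a mean of at least 100 and 2 of these had a 2-fold range (13.3%, against 3.36% of all genes). The 2 were Pax6, which is active in ciliary and iris epithelium and in neurons of the retina, at 99.97, 671 and 150, and Zic1, at 3.09, 347 and 9.06. Both were high in library 2, and Zic1 reached the mean of 100 through that library alone. Tfec, a relative of Mitf, was at 5.15, 14.8 and 5.44. Over all 536 transcription factors with a mean of at least 100, 38 had a 2-fold range (7.09%, against 3.36% of all genes), and 25 (4.66%) were at or under 0.5 of the others in library 2, against 1.08%. Without the immediate early list, 27 of 524 (5.15%) had a 2-fold range.

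**Figure D3:**
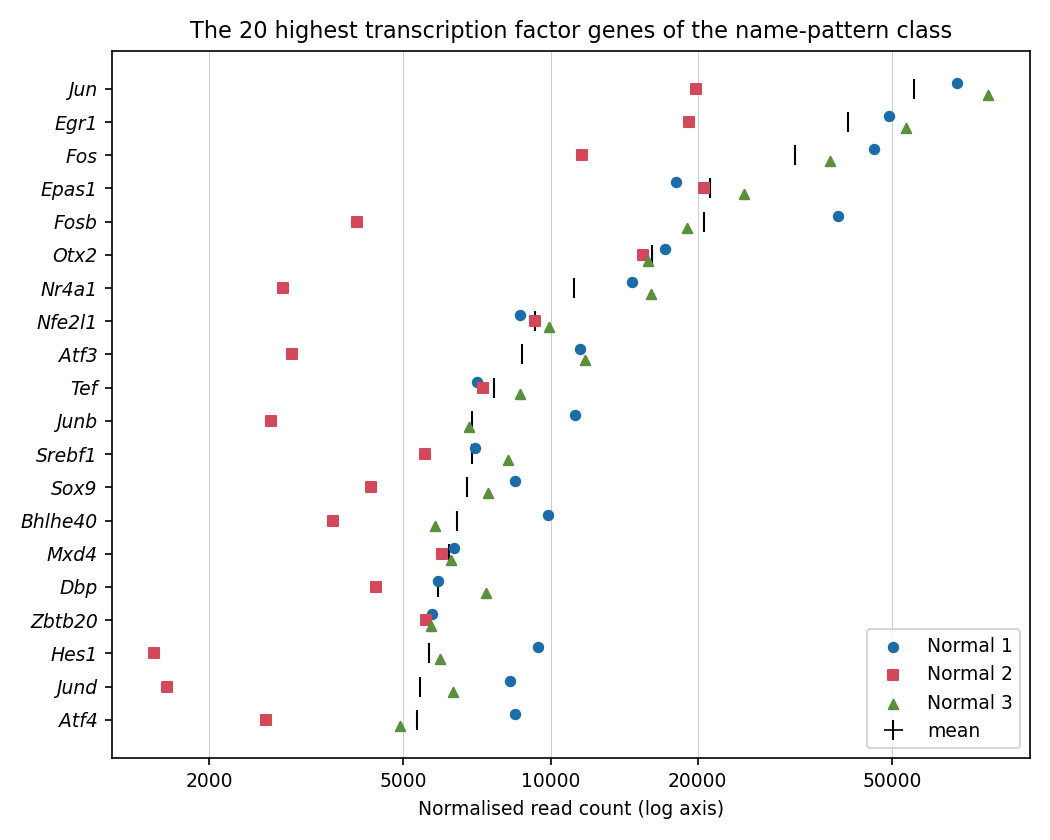
Normalised read count (horizontal log axis) of the 20 genes with the highest mean in the transcription factor class taken by name pattern (Myrf is not in it); points are the 3 Normal libraries and the vertical tick is the mean. Library 2 lies far to the left for Jun, Fos, Fosb and Hes1, and the libraries nearly coincide for Otx2, Mxd4 and Zbtb20.

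The lists of pigment, outer segment uptake with lysosomes, and glycolysis held 20, 23 and 17 genes. Of these, 1, 5 and 3 were among the 100 highest of all 28043 genes. Dct and Tyr, enzymes of melanin synthesis, averaged 16674 and 8251, and Tyrp1 4923. Pmel, the fibril protein of the melanosome, measured 468, 1368 and 1103 and the channel gene Trpm1 944, 2759 and 1939, both low in library 1. The summed pigment list was 61486, 73796 and 80501, and 2 of 17 members had a 2-fold range (11.8%, against 3.36% of all genes). Mertk, the receptor that triggers engulfment of outer segments, averaged 5048 ± 319, its ligand Gas6 2605 and the uptake integrin subunits Itgav and Itgb5 18242 and 3591. The iron store genes Fth1 and Ftl1 averaged 14015 and 11979, and the iron exporter Slc40a1 15.2. Among glycolytic genes Aldoa averaged 28058, Eno1 18719 and Pkm 11677. Gapdh, at 1100, has many pseudogene copies and is uncertain. The 21 nuclear genes of the respiratory chain had a median CV of 5.42%, against 9.34% over all genes. A 2-fold range in 0 of 21 is near the background of 3.36%. Atp5b had the most reads, at 15498.

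Genes of epithelial junctions and keratins had a median CV of 10.7%, against 9.34% over all genes. Ezr, ezrin of the apical microvilli, averaged 23954, the simple-epithelium keratins Krt18 and Krt8 14215 and 8507, and the tight junction gene Cldn1 10736. Cdh3, P-cadherin, measured 5231, 5623 and 3976, while Cdh1, E-cadherin, was at 3.09, 59.3 and 3.63. P-cadherin thus had more reads than E-cadherin in each library. A 2-fold range was found in 0 of the 16 junction and keratin genes with a mean of at least 100, which at 3.36% of all genes is near the background. Krt19 (5.15, 158 and 8.16) and Cldn19 (0, 160 and 7.25) lay under that mean and were read mostly in library 2. The basement membrane genes Col18a1, Col4a4 and Col4a3 averaged 14239, 12770 and 10919. Sfrp1, an inhibitor of WNT signalling, averaged 7228, and the growth factors Bmp4 and Bmp6 5356 and 4040.

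Over all 10144 genes with a mean of at least 100 the median CV was 9.34%, with quartiles of 5.76% and 14.1%, while counting alone would give a median of 3.99%. The limit of 100 is on the mean, so a gene high in 1 library can pass through that library alone. The CV depended on level. Its median was 28.3% for genes with means of 10 to 100, 9.98% for 100 to 1000, 8.19% for 1000 to 10000, and 10.01% for the 173 genes between 10000 and 100000. Jun, Egr1, Fos, Hspa5 and Hsph1 belong to the last of these, in which 10 genes (5.78%) had a 2-fold range. What part such genes have in its median was not tested. Among the 500 highest genes, Macf1, a crosslinker of actin and microtubules, had the lowest CV, at 0.637% (9107, 9199 and 9215). Slco1c1, a thyroid hormone carrier, followed with 0.945%, then Sgk3 (0.962%), Ctnnal1 (1.43%), Cpe (1.45%) and Rgr (1.52%). Pde4dip, Atp11a, Zbtb20 and Rhobtb2 completed the 10 lowest, up to 2.02%. How often chance gives such low values among 500 genes was not tested.

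**Figure D4:**
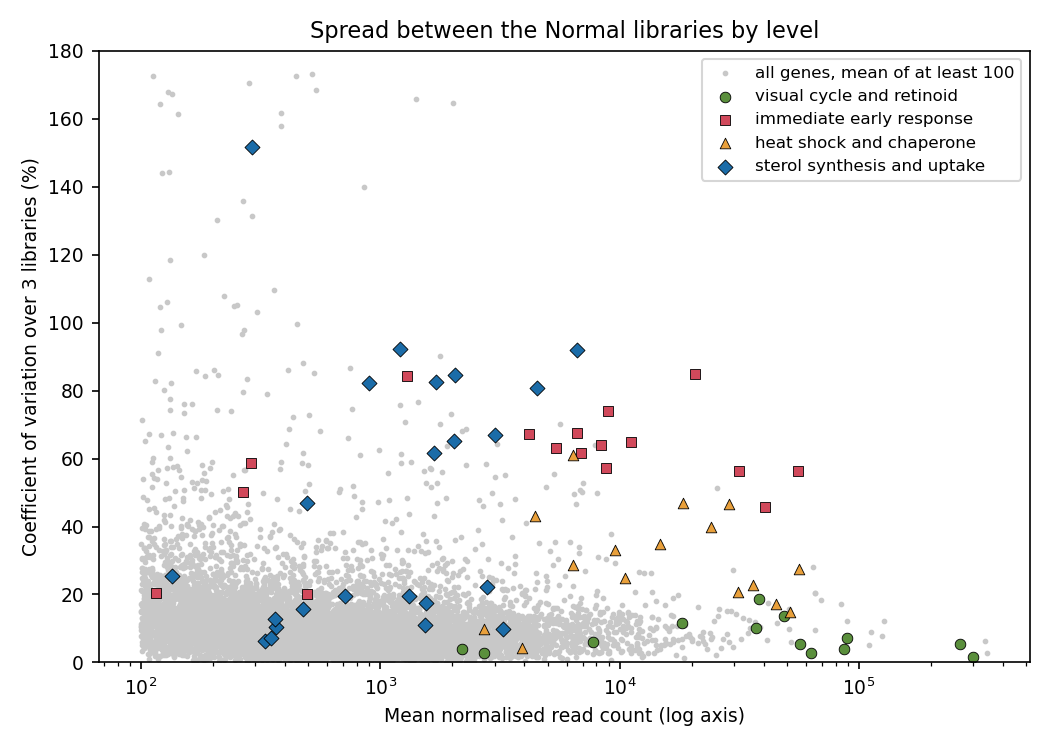
CV over the 3 Normal libraries (vertical axis, percent) against mean normalised count (horizontal log axis) for every gene with a mean of at least 100, with 4 lists marked. The visual cycle genes lie under 19%, and most immediate early genes lie between 45% and 85%.

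The immediate early list had the widest split between libraries at a high level. Its 17 genes summed to 292673, 72904 and 267773, so library 2 stood at 0.26 of the mean of the others. A 2-fold range was found in 15 of 17 (88.2%, against 3.36% of all genes), and 14 were at or under 0.5 in library 2, against 1.08% of all genes. Btg2, an inhibitor of cell growth, measured 14046, 1478 and 11347, Dusp1, a phosphatase of MAP kinases, 10766, 1875 and 7314, and Zfp36, which destabilises mRNA, 11048, 2188 and 11756. The exceptions within the list were Ier3 (548, 380 and 554) and Egr3 (88.6, 128 and 131), which stayed within 2-fold. The Btg2 promoter is shown because it carries the full cAMP response element TGACGTCA, in capitals at position -166 (GRCm38.p6, chr1:134079156-134079405, minus strand, 250 bases before the start site).
Btg2: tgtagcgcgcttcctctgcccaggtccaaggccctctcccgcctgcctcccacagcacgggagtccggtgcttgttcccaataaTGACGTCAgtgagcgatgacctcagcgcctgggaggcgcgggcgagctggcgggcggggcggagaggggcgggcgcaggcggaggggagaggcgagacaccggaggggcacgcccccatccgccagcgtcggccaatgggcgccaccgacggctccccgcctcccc
That element was found in 2 of the 18 promoters matched to the list, against 1.79% of all promoters.

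Heat shock and chaperone genes, a list chosen after values had been seen, summed to 380414, 246842 and 420834. They held 2.11% of the total, and 8 of the 16 were among the 100 highest of all 28043 genes. Hspa1b measured 58179, 39732 and 70300, and Hspa5, the chaperone of the endoplasmic reticulum, 28658, 15359 and 42050. Hsph1, a partner of HSP70, measured 20146, 9043 and 26096 and Dnajb1, its co-chaperone, 30340, 12997 and 28765. Library 2 was the lowest in each. Bag3, another co-chaperone, measured 5304, 3134 and 10691, high in library 3. A 2-fold range was found in 7 of the 16 (43.8%, against 3.36%), while Hspa4 varied by a CV of 4.23%. Hspa1a (36080) and Hspa1b are nearly identical copies, so the split of reads between them is uncertain. Their promoters show the likeness. They differ at 3 of 250 bases (GRCm38.p6, chr17:34959239-34959488 for Hspa1b and chr17:34972157-34972406 for Hspa1a, minus strand), and capitals mark the heat shock element core GAANNTTC at position -104 of both.
Hspa1b: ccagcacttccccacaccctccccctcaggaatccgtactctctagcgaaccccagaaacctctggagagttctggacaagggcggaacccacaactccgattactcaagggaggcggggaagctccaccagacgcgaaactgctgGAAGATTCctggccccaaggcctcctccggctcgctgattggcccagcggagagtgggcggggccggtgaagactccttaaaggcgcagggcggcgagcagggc
Hspa1a: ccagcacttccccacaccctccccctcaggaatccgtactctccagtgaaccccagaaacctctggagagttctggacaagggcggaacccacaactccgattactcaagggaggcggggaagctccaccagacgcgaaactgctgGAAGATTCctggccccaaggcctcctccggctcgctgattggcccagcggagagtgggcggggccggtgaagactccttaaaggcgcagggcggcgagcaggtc
The core was present in 9 of the 17 promoters matched to the list (52.9%), against 7.86% of all promoters.

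Sterol synthesis and uptake genes, also chosen after values had been seen, were high in library 1 and low in library 2. The 23 genes summed to 60395, 20213 and 32622, and 10 of them were at least 2-fold above the other libraries in library 1, against 0.68% of all genes. In library 2, 11 of the 23 (47.8%) were at or under 0.5 of the others, against 1.08%. Those others include library 1, so both counts can share genes. Insig1, which holds the sterol sensor in the endoplasmic reticulum, measured 13527, 1758 and 4697. Hmgcs1, an early enzyme of the mevalonate pathway, measured 8584, 1653 and 3255. Idi1 (2475, 421 and 719) and Lss (3305, 658 and 1153) had the same order of libraries. Other members did not split in this way, among them Srebf2, a regulator of the pathway (3036, 3102 and 3623). Fdps measured 797, 19.4 and 53.5, the highest ratio of library 1 to the others (21.9) among genes with a symbol other than a gene model's. It overlaps a gene model on the same strand and has pseudogene copies, so its level is uncertain. The Hmgcs1 promoter carries the sterol element core CACCCCAC at position -136, in capitals (GRCm38.p6, chr13:119690101-119690350, plus strand).
Hmgcs1: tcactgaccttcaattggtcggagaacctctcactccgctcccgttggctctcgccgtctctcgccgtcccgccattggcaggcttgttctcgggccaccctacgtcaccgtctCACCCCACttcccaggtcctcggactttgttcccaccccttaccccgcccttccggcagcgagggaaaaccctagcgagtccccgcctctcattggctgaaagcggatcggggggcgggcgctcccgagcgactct
The core was found in 2 of the 20 promoters matched to the list, against 2.87% of all promoters.

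Genes high in library 2 were led by keratins of stratified surface epithelium. Krt5 measured 0, 1550 and 0.906, Krt15 1.03, 1333 and 2.72, and Krt4 0, 336 and 0.906, all at or under the floor in libraries 1 and 3. The corneal and conjunctival marker list without Perp, which was even at 3481, 4146 and 4513, summed to 89.7, 4205 and 70.7. Krt12, the keratin that defines corneal epithelium, was at 14.4, 11.1 and 9.06 and did not share the pattern. It shares 1007 exon bases with a gene model on the opposite strand, whose mean was 108. Without strand the level of Krt12 is uncertain. The ciliary and iris list summed to 810, 1909 and 824, with Aqp1 at 53.6, 257 and 51.7. Of its 4 members with a mean of at least 100, 1 was highest in library 3. Another 2, Aqp1 and Zic1, were at least 2-fold above the others in library 2 (50%, against 0.759% of all genes). These 2 reached the mean of 100 through library 2 alone. Optc, opticin of the vitreous (2.06, 842 and 7.25), Penk, proenkephalin (6.18, 1587 and 22.7), and the anion exchanger Slc26a4 (0, 382 and 8.16) were likewise read almost entirely in library 2. In all, 77 of 10144 genes were at least 2-fold above the others in library 2 and 69 in library 1, but 23 in library 3 (0.227%). The highest of these in library 3 were Fam71a (205, 174 and 961), Polg2, a subunit of mitochondrial DNA polymerase (357, 192 and 1044), Lonrf3, Thoc6 and Rabepk.

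Marker lists of other cells were described by their summed levels. The Muller glia list was high and even, at 237739, 236829 and 252295, but Apoe and Rlbp1, which the RPE also expresses, gave most of it. Glul, glutamine synthetase of glia, measured 31715, 37567 and 33714, while Kcnj10, the potassium channel of Muller cells, was at 9.28, 5.56 and 7.25. The melanocyte list, which shares Dct, Tyr and Tyrp1 with the pigment list, summed to 32788, 40322 and 43816, the Schwann cell list to 9034, 9180 and 9406, and cycling cell markers to 1740, 1561 and 1644. Rod markers without Rom1 and Cngb1 summed to 179, 1188 and 509, lowest in library 1 and highest in library 2. Rom1 itself was even, at 3873, 3798 and 4682, and stood apart from the other rod genes. Among macrophage markers the same held for Csf1r (9343, 9591 and 11181), while the other 19 summed to 2375, 1290 and 1112, with Cx3cr1 at 10.3, 11.1 and 9.06. Endothelial markers summed to 2337, 2734 and 1473, of which Ramp2 alone gave 1106, 1326 and 1073, and Pecam1 63.9, 73.2 and 21.8. Erythroid markers summed to 325, 430 and 185. Cone markers (822, 859 and 783) came mainly from Gnat2 and Pde6c, with Opn1sw, the short-wave cone opsin, at 6.18, 26.9 and 13.6. Opn1sw shares 397 exon bases with Calu on the opposite strand, whose mean was 3545, so its level is uncertain without strand. Of 15 inner retinal neuron markers 11 had a mean under 10, as had 12877 of all 28043 genes. Gfap, the filament of astrocytes and reactive glia, was at 15.5, 15.7 and 23.6, and Aqp4, the water channel of glia, at 0, 95.4 and 2.72. Lymphocyte markers (12.4, 4.63 and 9.06) and neutrophil markers (11.3, 4.63 and 1.81) were each near the floor. Sox10, a factor of neural crest cells that marks melanocytes and Schwann cells, averaged 4556 ± 261. Fewer cells of a type and less RNA per cell cannot be told apart in such bulk libraries, and what part these other cells have in the differences between libraries was not tested.

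**Figure D5:**
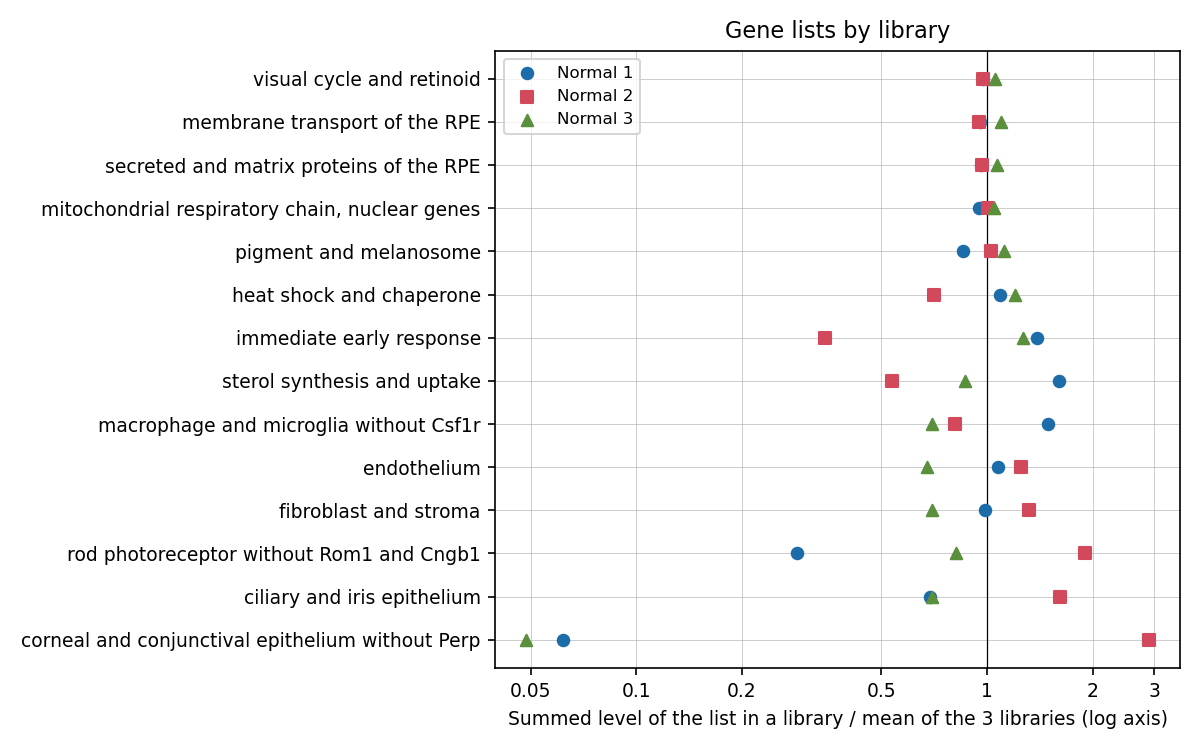
Summed level of each gene list in a library divided by the mean of the 3 Normal libraries (horizontal log axis); 1 row per list, 1 symbol per library. Lists of RPE function lie close to 1, whereas the immediate early, heat shock, sterol, ciliary and corneal lists spread by library.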

How the data were processed

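Only the 3 libraries labelled Normal were used, grouped and numbered by title. The authors deposited a normalised signal for each gene name, namely read counts divided by 1 factor per library: in each library 100% of values were whole multiples of 1 step, to within 0.001 reads. The submitters' processing notes list mm10 and DESeq2 and give no role for either. Aligner, counter, annotation and use of strand: not given in the sources used here. No count test was run, since there is 1 group.

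From these signal values were computed means, SDs and CVs over the libraries (n = 3), ranks, shares of the total, and values per kb of exon union in GENCODE M21 (27362 names matched, 26213 genes with at least 200 bases ranked). Spread was described for genes with a mean of at least 100 and a fold of 2 between libraries. The spread computation was tested on simulated data. Of the names, 26 were dates, with 0.102% of the total, and are not named. Genes were named by a rule: the 20 highest, the 10 highest per kb, the 10 highest of each class, up to 4 of each list, the 5 most raised in each library and the 10 with the lowest CV among the 500 highest. Further genes were named after their values were seen, and some that the rule selects are not reported here. Classes were taken by name pattern, which misses some members (Myrf among transcription factors, Flvcr2 among transporters and Pcolce among secreted proteins), and from which Zfp36 relatives and the scaffolds Slc9a3r1 and Slc9a3r2 were taken out after values were seen. The members and the 35 gene lists were chosen with earlier results of these data known, 3 of the lists after the values here were seen. Promoters are from RefSeq (GRCm38.p6, 27025 gene symbols), and motifs were searched on both strands in windows of 300 bases, 50 of them after the start site. None of the motifs searched is contained in another. Alternatives were the TMM scaling of edgeR, CPM, other minimum means, other gene lengths and each library left out. Work was done in R 4.3.3 with edgeR 4.0.16 and in Python 3.11.15 with matplotlib 3.10.9, numpy 2.4.6 and pandas 2.3.3.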

Additional observations from a re-analysis of the deposited data

How the results depend on the processing

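Across 18 results and 98 alternative values, 87 stayed within the limit set for each result and 11 moved. For the levels of Rpe65, Rgr, Rlbp1, Ptgds and Trf the limit was the SD over the 3 libraries. Leaving out 1 of 3 libraries cannot shift a mean by that much, so those values could not count as moved. For counts the limit was wide: 17 transcription factors among the 500 highest without library 1, against 22, stayed within it. The count of 87 is therefore partly set by the limits. The share of the 10 highest genes was 11.9% with immediate early, heat shock and stratified keratin genes left out of the total, an alternative chosen after seeing the data. Ranking per kb kept 64 of the 100 highest genes. The median level per kb over the 20 highest genes was 42275 with the longest transcript as length, against 33227. The median CV was 29.3% with no minimum mean. The count of genes with a 2-fold range, 341 with 3 libraries, was 139 to 215 with 1 library left out, since 2 libraries span a smaller range, and 139 was without library 2 (204 without library 1, 215 without library 3). It was 907 at a minimum mean of 30, 99 at 1000 and 12127 with no minimum. The corneal and conjunctival list in library 2 was 2.05 times the mean of the others, and 52.4 times without Perp, also chosen after seeing the data. Depth limits genes near the floor of 3 reads, and 3 libraries limit the precision of every SD. No paired analysis was possible because only 1 group was used and no result comes from a test.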
